A study of Rattus norvegicus with 18 samples.

Results

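The genes described here are 44 genes of antigen processing and the interferon response, followed in rat epiblast and in primordial germ cells (PGC), from which eggs and sperm descend. They were picked by symbol from a table of 32545 gene lines, and they were proposed with their higher level in PGC than in epiblast already known, so that difference is given below as a description without a test. Tap2 has a pair of lines in the table, and the line with the higher values was used. Levels are RPKM, reads scaled to transcript length and to the size of the library. Of the 44 genes, 39 reached 1 RPKM in at least 2 of the 18 libraries and were tested together with all 14865 genes that did so. The other 5, Tap2, Nlrc5, Ifit2, Ifit3 and Rsad2, stayed at or below 0.468 RPKM in every library and were not tested.

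All 18 RNA-seq libraries came from embryos of the Wistar strain Crlj:WI with the genotype Prdm14-Venus, a reporter line named for the fluorescent protein Venus and for Prdm14, a transcription factor of germ cell specification. Epiblast and PGC groups alike carry it, and no group lacks it. Epiblast, the tissue from which PGC arise, was sampled at E7.25 and at E7.75, with 2 male libraries and 1 female library at each age. PGC were sampled at 4 ages from E9.5 to E12.5, 1 day apart, with 2 libraries per age and no sex given, and at E15.5, with 2 male and 2 female libraries. The labels do not say whether replicates were separate litters, how the cells were collected or whether embryos were pooled, so the p-values below measure only the spread between these libraries.

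Proteins made in a cell are cut into peptides by the proteasome, carried into the endoplasmic reticulum by the Tap1 and Tap2 transporter and loaded with the help of Tapbp onto class I heavy chains paired with B2m. In cells exposed to interferon, Psmb8, Psmb9 and Psmb10 replace the constitutive catalytic subunits Psmb5, Psmb6 and Psmb7, and Psme1 and Psme2 form a cap that changes the peptides released. Interferons bind receptors that act through the kinases Jak1, Jak2 and Tyk2, and the Stat and Irf transcription factors they switch on induce antiviral effectors such as Isg15, Mx2 and Bst2.

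In the epiblast 20 of the 44 genes stayed under 1 RPKM in all 6 libraries, and 8 of them (Tap2, Psmb8, Parp12, Usp18, Ifit2, Ifit3, Mx1 and Gbp2) were listed at 0 throughout. Only Psmb10, Jak1 and Irf3 were over 10 RPKM in every epiblast library. In PGC 15 genes were over 10 RPKM in all 12 libraries: Tapbp, Psmb8, Psmb9, Psme1, Psme2, Jak1, Irf1, Irf3, Stat2, Ddx58, Parp9, Parp12, Isg15, Ifi35 and Trim25. The 12 PGC libraries lay above all 6 epiblast libraries for 19 of the 44 genes and below them for 0, and 25 genes overlapped. Over all 14865 genes tested, 5.63% were higher and 6.07% lower in PGC without overlap, and nothing is read from this comparison because it chose the genes. By role, the 19 were 4 of 5 proteasome genes, 2 of 2 RNA sensors, 10 of 18 induced effectors, 2 of 7 transcription factors and 1 of 4 peptide loading genes, with 0 of 6 receptors and kinases and 0 of 2 genes of MHC regulation. Between the 2 E9.5 PGC libraries and the 3 E7.75 epiblast libraries, 33 genes were higher without overlap, 0 lower and 11 overlapped, where 28.2% of all genes tested were higher and 20.7% lower.

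**Figure D1:**
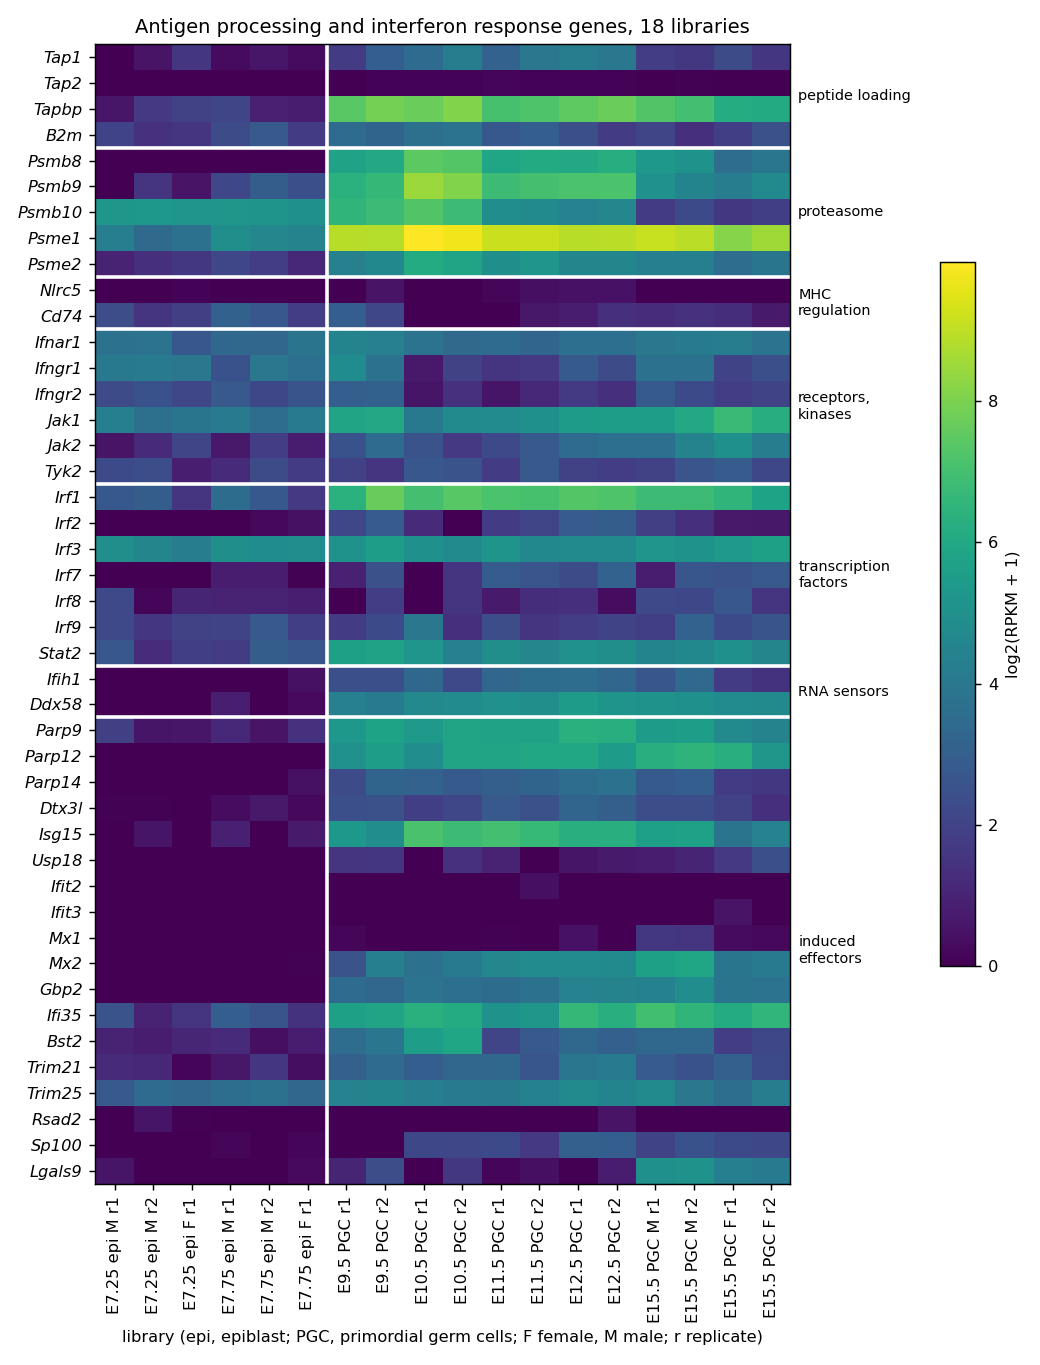
Level of each of the 44 genes (rows, ordered by role) in each of the 18 libraries (columns), as log2(RPKM + 1) on the colour scale. The vertical white line parts the 6 epiblast libraries from the 12 PGC libraries, and 8 genes are at 0 in every column on its left.

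The germ cell identity of the libraries was checked with 7 PGC marker genes, whose summed level was 5.56 to 19.99 RPKM in the epiblast libraries and 423 to 850 RPKM in the PGC libraries. Tfap2c was the highest of the 7 in every PGC library; Dppa3 was at most 0.537 RPKM in 7 of the 12 PGC libraries (E9.5 replicate 1, those of E10.5 and E11.5 and the E15.5 males) and 31.3 to 85.7 RPKM in the other 5, and Prdm14 was 0.299 RPKM in E10.5 replicate 1. The 14 leukocyte and macrophage markers mark cells that also express many of these genes. They summed to 0.846 to 7.33 RPKM in epiblast and 2.09 to 12.9 RPKM in PGC. C1qa, C1qc and Itgam were at 0 in all 18 libraries, so they do not tell the groups apart. Tyrobp was 1.207 to 3.397 RPKM in the E15.5 libraries and at most 0.7999 RPKM in the others. C1qb, at 3.454 RPKM, and Ptprc, at 0.4976 RPKM, were above 0 only in E15.5 male replicate 1. Laptm5 and Spi1 went the other way, at 0 in every E15.5 library. By their sums, endothelial and mesenchyme markers were highest at E9.5. There 7 endothelial markers summed to 35.3 to 141 RPKM and 6 mesenchyme markers to 159 to 168 RPKM. In the later PGC libraries the sums were 3.27 to 16.3 RPKM and 1.05 to 22.4 RPKM. Most of the mesenchyme sum at E9.5 was Prrx2, at 116 and 120 RPKM, while Col1a2 was at 0. In E9.5 replicate 2 Kdr was 25.3 RPKM, and Cdh5, Tie1 and Cldn5 were at 0. From other marker lists, Krt8 was 297 and 178 RPKM at E9.5 and Gata4 13.3 and 27.7, while Afp, Wt1 and Nr5a1 were at 0. The erythroid marker Hba1 was 41.1 RPKM in E12.5 replicate 1 and 0 in every other library. Relative sequencing depth was read from the most common ratio between values under 50 RPKM in a library and in the E7.75 female epiblast library. That ratio rested on few genes, from 30 in E10.5 replicate 1 to 157 in E7.25 male replicate 2. Depth so read was 20.7% to 22.9% of the E7.75 female library in the 4 E10.5 and E11.5 libraries and 82.6% to 121% in the other 14. The E10.5 against E9.5 and E12.5 against E11.5 comparisons therefore set stages of unlike depth side by side, and depth and stage cannot be told apart in them. The E11.5 against E10.5 and E12.5 against E9.5 comparisons set libraries of like depth together. The E10.5 and E11.5 libraries still differed in other ways. At E10.5, 21.35% and 21.61% of the genes tested were at 0, against 14.36% and 14.96% at E11.5. Summed RPKM was 849182 and 760137 at E10.5 and 671179 and 669651 at E11.5. The part of this in the high E10.5 levels below was not tested.

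Tapbp, the chaperone that holds class I molecules at the peptide transporter, was 0.520 RPKM in the lowest epiblast library and 3.30 RPKM in the highest, with a median of 1.53. In PGC it was 172 and 236 RPKM at E9.5, 209 and 274 at E10.5, 132 and 150 at E11.5, 179 and 204 at E12.5, 151 and 128 in E15.5 males, and 70.6 and 67.9 in E15.5 females. The E15.5 female libraries were the lowest PGC libraries, and no PGC library overlapped the epiblast range. Tap1, a subunit of that transporter, ranged from 0 to 2.0 RPKM in epiblast. Its PGC values were 2.31 and 6.82 RPKM at E9.5, 10.1 and 17.8 at E10.5, 7.71 and 14.6 at E11.5, 17.1 and 14.8 at E12.5, 2.51 and 2.04 in E15.5 males, and 3.803 and 1.97 in E15.5 females. Tap1 was highest between E10.5 and E12.5, and the E15.5 libraries did not overlap those of E12.5. Its partner Tap2 never passed 0.12 RPKM, and B2m, the class I light chain, stayed at 1.51 to 13.1 RPKM in PGC with its highest values, 11.9 and 13.1, at E10.5.

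The proteasome genes held the highest levels of the set. Psme1, a cap subunit, was 9.99 to 29.7 RPKM in epiblast, 477 and 472 at E9.5, 1008 and 858 at E10.5, 585 and 578 at E11.5, 479 and 495 at E12.5, 565 and 491 in E15.5 males, and 286 and 377 in E15.5 females. Psmb8 had a listed level of 0 in each of 6 epiblast libraries and was 52.6 and 64.0 RPKM at E9.5, 176 and 158 at E10.5, 58.8 and 67.6 at E11.5, 63.9 and 74.3 at E12.5, 39.2 and 34.1 in E15.5 males, and 10.98 and 14.1 in E15.5 females. Both genes were highest at E10.5 and lowest among PGC in E15.5 females, without overlap with any other PGC stage.
Psmb9 was 0 to 6.68 RPKM in epiblast, 81.2 and 98.5 at E9.5, 356 and 271 at E10.5, 113 and 131 at E11.5, 140 and 141 at E12.5, 32.1 and 21.8 in E15.5 males, and 17.4 and 26.1 in E15.5 females. Psmb10 differed from these in being present in epiblast, at 31.3 to 38.4 RPKM. It was 90.4 and 114 RPKM at E9.5, 154.8 and 113 at E10.5, 28.9 and 26.0 at E11.5, 20.5 and 23.8 at E12.5, 2.35 and 3.72 in E15.5 males, and 2.07 and 2.63 in E15.5 females. From E11.5 on every PGC library of Psmb10 was below every epiblast library. The second cap subunit, Psme2, was 0.934 to 3.35 RPKM in epiblast and 10.8 to 70.1 RPKM in PGC, with 70.1 and 55.8 at E10.5.

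**Figure D2:**
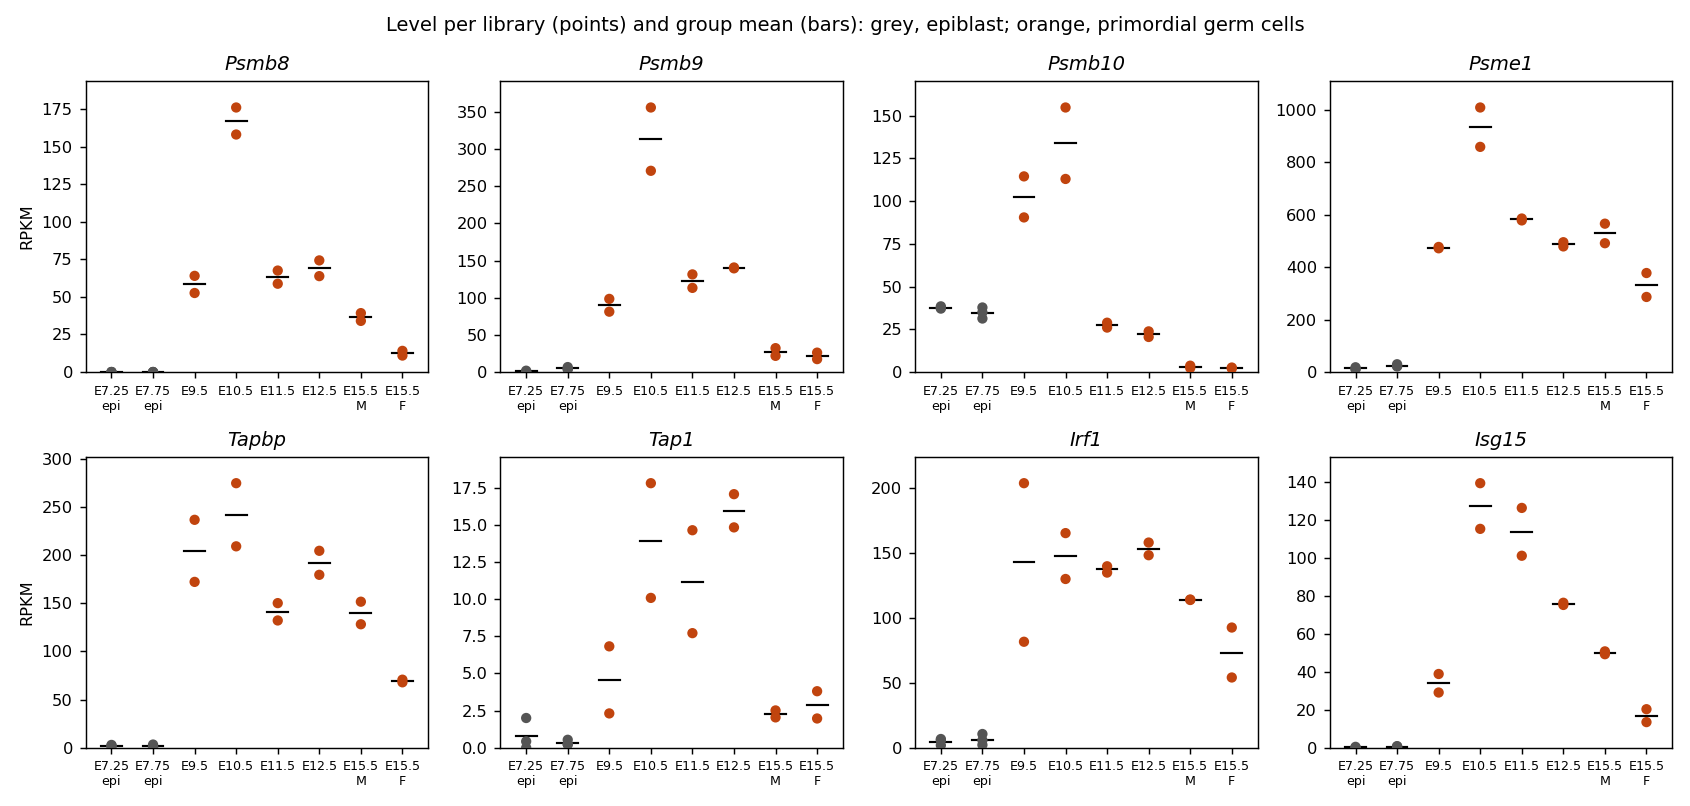
RPKM of 8 of the genes in each library (points) with the group mean (bars), by age; epi, epiblast; M, male; F, female. Each panel has its own linear axis from 0, and Psmb8, Psmb9, Psmb10 and Psme1 show their highest mean at E10.5.

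Because RPKM is scaled to transcript length, each interferon-inducible subunit can be set beside the constitutive subunit it replaces. Psmb8 made up 0% of the summed Psmb8 and Psmb5 level in epiblast, a mean of 15.3% at E9.5, 21.5% at E10.5, 13.04% at E11.5, 17.1% at E12.5, 9.24% in E15.5 males and 4.79% in E15.5 females (n = 2 libraries each). Psmb5 itself, the constitutive partner, was not steady in the PGC libraries. It was highest at E10.5, at 668 and 557 RPKM, and lowest in E15.5 females, at 246 and 251 RPKM. The share of Psmb10 in the sum of Psmb10 and Psmb7 averaged 13.6% and 11.8% in the 3 libraries each of E7.25 and E7.75 epiblast. It averaged 33.2% at E9.5, 32.3% at E10.5, 10.6% at E11.5, 7.80% at E12.5, 1.09% in E15.5 males and 1.33% in E15.5 females. The E9.5 replicates were far apart, at 26.3% and 40.1%. In them Psmb7 was 254 and 171 RPKM and Psmb10 was 90.4 and 114 RPKM, so both genes of the pair differed. Across all PGC libraries Psmb7 ranged from 154 to 320 RPKM. No share is given for Psmb9, since its partner Psmb6 is listed at only 1.32 to 7.26 RPKM in every library.

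**Figure D3:**
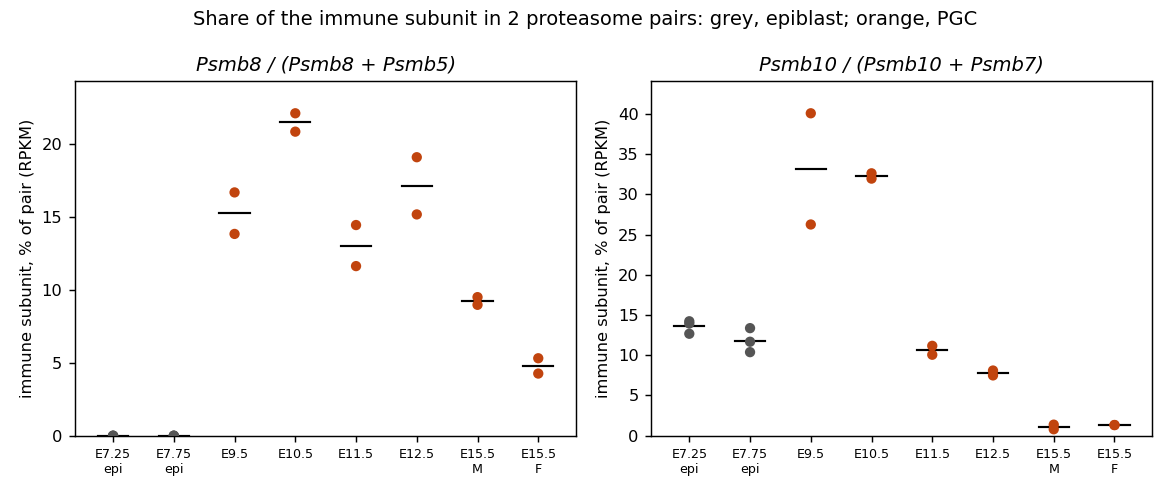
Percentage of each proteasome pair's summed RPKM that belongs to the interferon-inducible subunit, per library (points) and group mean (bars). The Psmb8 share is 0 in epiblast and peaks at a mean of 21.5% at E10.5; the Psmb10 share has means of 1.09% in males and 1.33% in females at E15.5.

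The genes upstream in the pathway were less one-sided. Jak1, a kinase shared by type I and type II interferon receptors, was 10.8 to 18.6 RPKM in epiblast. Its PGC values were 56.4 and 63.9 RPKM at E9.5, 15.6 and 25.5 at E10.5, 27.5 and 31.4 at E11.5, 43.2 and 47.4 at E12.5, 46.9 and 64.4 in E15.5 males, and 106 and 73.4 in E15.5 females. It was lowest among PGC at E10.5 and highest in E15.5 females. Ifnar1, a chain of the type I receptor, ranged from 5.60 to 13.3 RPKM in epiblast and from 8.48 to 21.95 RPKM in PGC, with the highest 2 libraries at E9.5. The type II receptor chain Ifngr1 was 28.1 and 12.1 RPKM at E9.5, 0.610 and 2.86 at E10.5, 1.81 and 2.182 at E11.5, 6.01 and 3.799 at E12.5, 12.6 and 12.3 in E15.5 males, and 3.17 and 4.45 in E15.5 females.
Its epiblast values, 4.71 to 16.3 RPKM, overlapped those of PGC. Jak2 and Tyk2, the other receptor kinases, were 0.449 to 3.23 and 0.778 to 4.24 RPKM in epiblast and 2.17 to 30.9 and 1.88 to 6.54 RPKM in PGC, with the highest Jak2 value in an E15.5 female library. Of 14 listed interferon ligand genes, 9 are in the table; 6 of these were at 0 in all 18 libraries, and the highest value of any was 0.562 RPKM.

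Among the transcription factors, Irf1, an inducer of class I and immunoproteasome genes, was 1.87 to 10.6 RPKM in epiblast, with a median of 5.79. In PGC it was 81.6 and 204 RPKM at E9.5, 130 and 165 at E10.5, 140 and 135 at E11.5, 158 and 148 at E12.5, 114 and 114 in E15.5 males, and 92.6 and 54.1 in E15.5 females. The E9.5 replicates spanned nearly the whole PGC range, and no tested stage or sex comparison of PGC reached the threshold for Irf1. Irf3, which is activated by viral sensing without new synthesis, was 17.6 to 30.5 RPKM in epiblast and 24.1 to 50.3 RPKM in PGC, a range that overlapped. Stat2, a subunit of the type I interferon factor, was 1.37 to 6.77 RPKM in epiblast and 19.6 to 53.2 RPKM in PGC, whereas its DNA-binding partner Irf9 overlapped, at 1.97 to 5.97 and 1.59 to 14.9 RPKM. Irf2, Irf7 and Irf8 stayed at or under 7.82 RPKM in every library.

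Ddx58 and Ifih1 encode sensors of viral RNA. Ddx58 was at most 0.790 RPKM in epiblast and was 19.3 and 16.8 RPKM at E9.5, 25.3 and 27.3 at E10.5, 32.4 and 29.2 at E11.5, 44.5 and 35.2 at E12.5, 33.7 and 31.4 in E15.5 males, and 27.1 and 25.5 in E15.5 females. Ifih1 was at 0 in 5 epiblast libraries and at 0.347 RPKM in the sixth, against 1.76 to 10.8 RPKM in PGC. The lowest 2 PGC values of Ifih1, 2.43 and 1.76, were those of E15.5 females.

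The induced effectors ranged from near 0 to among the highest of the set. Isg15, a ubiquitin-like modifier, was at most 0.835 RPKM in epiblast and was 38.8 and 29.0 RPKM at E9.5, 139 and 115 at E10.5, 126 and 101 at E11.5, 75.1 and 76.2 at E12.5, 49.2 and 50.7 in E15.5 males, and 13.5 and 20.3 in E15.5 females. Ifi35, an interferon-induced protein, was 0.916 to 6.93 RPKM in epiblast and 33.1 to 123 RPKM in PGC, lowest at E11.5 with 33.1 and 37.6. Of the genes of ADP-ribosylation, Parp9 was 0.452 to 2.76 RPKM in epiblast and 21.3 to 78.8 in PGC, Parp14 at most 0.363 and 2.08 to 12.4, and their ligase partner Dtx3l at most 0.620 and 1.61 to 8.48; for all 3 the highest PGC library was one of E12.5 and the lowest was replicate 2 of the E15.5 females. Parp12, another ADP-ribosyltransferase, was at 0 in all epiblast libraries and 29.0 to 88.9 RPKM in PGC. Gbp2, a GTPase, was at 0 in epiblast and 8.80 to 28.8 RPKM in PGC, and the ubiquitin ligases Trim21 and Trim25 were 0.129 to 2.01 and 5.88 to 12.1 RPKM in epiblast and 3.76 to 16.2 and 11.1 to 26.8 RPKM in PGC. Ifit2, Ifit3 and Rsad2, which respond strongly to type I interferon in many cells, were at or near 0 in PGC, with highest values of 0.341, 0.427 and 0.444 RPKM, and the ubiquitin-like protease Usp18 was 0 to 4.42 RPKM.

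Promoter sequences were examined because many of these genes stood together in PGC. RefSeq windows of the GRCr8 build, from 250 bases before to 50 bases after the gene start, were found for 35 of the 44 genes; Nlrc5, Jak1, Tyk2, Irf2, Ddx58, Isg15, Usp18, Ifit2 and Mx2 had no window here. The core of the interferon-stimulated response element (ISRE), searched as GAAA, any pair of bases and GAAA on both strands, occurs in 18 of the 35 windows (51.4%) and in 1312 of 33469 windows (3.92%). The gamma-activated site (GAS), searched as TTCNNNGAA on both strands, occurs in 6 of 35 (17.1%) and in 2970 of all windows (8.87%); in Bst2 it overlaps the ISRE. Such a match is a description of the letters and not a shown binding site. The pieces below hold matches of 8 genes whose levels are described, written 5′ to 3′ on the gene's strand; capitals mark the ISRE core matches, and in Irf1 the GAS match: chr20:4668645-4668704 (minus) for Tap1, chr20:4967878-4967937 (minus) for Tapbp, chr20:4657016-4657075 (minus) for Psmb8, chr19:50743290-50743375 (minus) for Psmb10, chr15:33052785-33052844 (minus) for Psme2, chr10:38417752-38417811 (plus) for Irf1, chr11:78408018-78408077 (plus) for Parp14 and chr16:18255073-18255132 (minus) for Bst2.
Tap1: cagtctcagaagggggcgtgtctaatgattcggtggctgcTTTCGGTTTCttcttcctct
Tapbp: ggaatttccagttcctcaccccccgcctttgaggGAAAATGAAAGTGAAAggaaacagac
Psmb8: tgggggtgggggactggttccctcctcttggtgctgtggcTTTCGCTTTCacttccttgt
Psmb10: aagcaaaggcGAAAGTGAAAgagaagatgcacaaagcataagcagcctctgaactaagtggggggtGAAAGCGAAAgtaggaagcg
Psme2: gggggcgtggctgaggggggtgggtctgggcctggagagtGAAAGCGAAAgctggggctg
Irf1: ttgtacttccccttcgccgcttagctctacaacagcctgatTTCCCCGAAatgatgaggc
Parp14: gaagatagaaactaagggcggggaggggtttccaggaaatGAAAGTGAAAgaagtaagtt
Bst2: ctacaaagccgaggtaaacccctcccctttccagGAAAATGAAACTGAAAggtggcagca
The Parp14 and Bst2 pieces also hold a GAS match, which is in capitals only where it overlaps the ISRE core, and that of Psmb8 lies outside its piece. Tapbp and Bst2 each hold a pair of overlapping ISRE core matches, Psmb10 holds 2 separate ones, and in Tap1 and Psmb8 the match lies on the opposite strand. The Psmb8 match runs from base -4 to base 6 around the gene start. Several of the genes are also neighbours among protein-coding genes of GRCr8: Tap2, Psmb8, Tap1 and Psmb9 in that order on chromosome 20, Parp9, Dtx3l and Parp14 on chromosome 11, Ifnar1 and Ifngr2 on chromosome 11, and Ifit2 and Ifit3 on chromosome 1.

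Stages and sexes were compared with limma on log2(RPKM + 1), with Benjamini-Hochberg adjustment over all 14865 genes and a threshold of 0.05; fold changes on this scale understate the change of low genes. Successive comparisons share libraries, so their calls are given side by side and not as independent evidence. Between E7.25 and E7.75 epiblast, 1 of 39 genes rose and 0 fell, where 0.101% of all genes tested rose and 0.168% fell. Of the 39, 15 were under 1 RPKM in every epiblast library and passed the filter only through PGC, and 5 of these were at 0 in all 6, so this count says little of them. The gene was Psmb9, at 0, 1.80 and 0.448 RPKM at E7.25 and 3.48, 6.68 and 4.36 at E7.75, without overlap (log2 change 1.84 ± 0.32 SE, limma adjusted p = 0.032). The call was lost with a pseudocount of 0.1, without a filter on low values and in a fit of the epiblast libraries alone, and without any of 5 of the 6 epiblast libraries, all but E7.25 male replicate 2. It was also lost without either E11.5 or E12.5 library or without E15.5 male replicate 1, which add only to the estimate of spread. Between female and male epiblast 0 genes passed limma in either direction, where 0.0135% of all genes tested were higher and 0.0471% lower; 2 had an unadjusted p under 0.05, and in a fit of the epiblast libraries alone 1 was higher and 1 lower.

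From E9.5 to E10.5, 8 of 39 genes rose and 5 fell, against 11.5% and 18.4% of all genes tested; the median log2 change was 0.18 for the 39 genes and -0.16 for all genes. By role, 4 of 5 proteasome genes, 1 of 3 peptide loading genes and 3 of 15 tested effectors rose, while 3 of 6 receptors and kinases, 1 of 7 transcription factors and Cd74 fell. Sp100, a nuclear body protein, was at 0 in both E9.5 libraries and at 3.44 and 3.396 RPKM at E10.5 (log2 change 2.14 ± 0.29 SE, limma adjusted p = 0.000107). Bst2, the virion tether tetherin, was 10.9 and 14.0 RPKM at E9.5 and 46.8 and 57.1 at E10.5 (log2 change 1.98 ± 0.34 SE, limma adjusted p = 0.000652). Isg15 rose by 1.88 ± 0.31 SE on the log2 scale (limma adjusted p = 0.000496). The replicates of all 3 genes did not overlap between the stages. Psmb9, Psmb8, Tap1, Psme2 and Psme1 rose by 1.78, 1.51, 1.5, 1.47 and 0.97 on the log2 scale. The Tap1 call (limma adjusted p = 0.047) was lost in 13 of the 18 fits that left out 1 library. Those without E9.5 replicate 1 or either E10.5 library were among them. The Psme1 call was lost with quantile normalization, and the Psmb9, Isg15 and Tap1 calls with a pseudocount of 0.1.

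The 5 genes that fell from E9.5 to E10.5 were Ifngr1, Ifngr2, Cd74, Irf2 and Jak1. Ifngr1 fell by 2.97 ± 0.50 SE on the log2 scale (limma adjusted p = 0.000618). Ifngr2, its partner chain, was 6.85 and 7.66 RPKM at E9.5 and 0.490 and 1.67 at E10.5 (log2 change -2.05 ± 0.37 SE, limma adjusted p = 0.00104). Cd74, the class II invariant chain, was 6.93 and 3.35 RPKM at E9.5 and 0 in both E10.5 libraries (log2 change -2.55 ± 0.47 SE, limma adjusted p = 0.00107). Irf2 and Jak1 fell by 1.89 and 1.54 on the log2 scale. These falls stand beside the fall of the endothelial and mesenchyme markers from their E9.5 levels to 9.58 to 10.1 RPKM and 1.21 to 5.87 RPKM at E10.5, and beside the drop in depth; the part of either was not tested, and in bulk samples fewer cells of a type and less RNA per cell cannot be told apart. Quantile normalization and upper quartile scaling moved the median of all genes by 0.19 and 0.15 and the share of all calls that were rises from 38.5% to 51.7% and 51.1%, while the members stood at 7 higher and 5 lower, and at 8 higher and 5 lower.

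From E10.5 to E11.5, 0 of 39 genes rose and 3 fell, against 3.59% and 3.61% of all genes tested, with medians of -0.09 for the 39 genes and 0.03 for all genes. Bst2 dropped to 3.19 and 5.85 RPKM (log2 change -3.30 ± 0.34 SE, limma adjusted p = 0.00015). Psmb10 fell by 2.23 ± 0.21 SE on the log2 scale (limma adjusted p = 7.1e-05) and Psmb8 by 1.39 ± 0.20 SE (limma adjusted p = 0.0018). None of these 3 overlapped between the stages, and all 3 calls were kept in every alternative run. The E10.5 and E11.5 libraries also differed in genes at 0 and in summed RPKM, as given above. The part of this in the falls was not tested. Without E7.25 male epiblast replicate 1, which adds only to the estimate of spread, 5 genes fell, and in a fit of the PGC libraries alone 6 fell.
From E11.5 to E12.5, 1 of 39 genes rose and 0 fell, against 4.12% and 3.09%, with medians of 0.22 for the 39 genes and 0.08 for all genes. The gene was Sp100, at 3.76 and 2.182 RPKM at E11.5 and 7.24 and 6.93 at E12.5 (log2 change 1.05 ± 0.29 SE, limma adjusted p = 0.042), and the call was lost in 10 of 18 fits that left out 1 library, among them those without any of the 4 libraries compared.

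Across the whole span from E9.5 to E12.5, in libraries of like depth, 6 of 39 genes rose and 5 fell, against 11.3% and 11.9% of all genes tested; the medians were 0.18 for the 39 genes and 0 for all genes. Sp100 rose by 3.01 ± 0.29 SE on the log2 scale (limma adjusted p = 6.4e-06). Tap1 rose by 1.73 ± 0.53 SE (limma adjusted p = 0.030), and the antiviral GTPase Mx2, at 4.93 and 19.0 RPKM at E9.5 and 27.3 and 25.9 at E12.5, by 1.34 ± 0.41 SE (limma adjusted p = 0.029). Isg15, Ddx58 and the GTPase Gbp2 rose by 1.15, 1.09 and 1.04. Psmb10 fell by 2.15 ± 0.21 SE (limma adjusted p = 7.8e-06), Ifngr1 by 1.75 ± 0.50 SE and Ifngr2 by 1.52 ± 0.37 SE, and Cd74 and B2m by 1.48 and 1.26. Over the same span the endothelial markers went from 35.3 to 141 RPKM to 15.02 to 16.3 RPKM. The mesenchyme markers went from 159 to 168 RPKM to 1.84 to 4.67 RPKM. The part of either in these falls and in those of the MHC genes below was not tested.
Only the Sp100 and Psmb10 calls were kept in every alternative run. The count of rises was 1 without E12.5 replicate 1 and 2 without E12.5 replicate 2, and the count of falls was 1 without E12.5 replicate 2 and 3 without E9.5 replicate 1. With a pseudocount of 0.1, 1 gene rose and 3 fell, and with quantile normalization 8 rose and 3 fell.

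From E12.5 to E15.5 the 2 sexes were each compared with the same 2 E12.5 libraries, whose sex is not given. In males 2 of 39 genes rose and 4 fell, against 3.58% and 5.15% of all genes tested, with medians of -0.28 for the 39 genes and 0 for all genes. In females 4 rose and 12 fell, against 8.6% and 9.84%, with medians of -0.57 for the 39 genes and 0 for all genes. The fallen genes in males were 3 of 5 proteasome genes and Tap1; in females they were the same 4, with Tapbp, Irf2, Ifih1, Isg15, Parp9, Parp14, Dtx3l and Bst2.

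Psmb10 fell by 2.54 ± 0.21 SE on the log2 scale in males (limma adjusted p = 6.1e-06) and by 2.79 ± 0.21 SE in females (limma adjusted p = 1.4e-06). Psmb9 fell by 2.36 ± 0.39 SE in males (limma adjusted p = 0.0019) and 2.66 ± 0.39 SE in females (limma adjusted p = 0.00035). Tap1 fell by 2.37 ± 0.53 SE in males (limma adjusted p = 0.013) and 2.16 ± 0.53 SE in females (limma adjusted p = 0.012). The male Tap1 call was lost without any of the 4 libraries compared, and the female one without either E12.5 library or female replicate 2. For these 3 genes both sexes lay below both E12.5 libraries, and females and males at E15.5 overlapped or stood close together. Psmb8 fell by 0.90 ± 0.20 SE in males (limma adjusted p = 0.014) and by 2.38 ± 0.20 SE in females (limma adjusted p = 4.5e-06); the male call was lost without E12.5 replicate 2 or male replicate 2.
In females Isg15 fell by 2.13, and the ADP-ribosylation genes Parp14, Parp9 and Dtx3l, which sit together on chromosome 11, by 1.97, 1.67 and 1.49. Irf2 fell by 2.24, from 6.32 and 6.62 RPKM to 0.613 and 0.554, and Ifih1, Tapbp and Bst2 fell by 1.79, 1.45 and 1.2. The female Tapbp and Bst2 calls were lost without any of the 4 libraries compared. That of Parp9 was lost without either E12.5 library or female replicate 2. With a pseudocount of 0.1 the female calls of Isg15, Parp9, Ifih1, Tapbp and Bst2 were lost. Those of Parp14, Dtx3l and Irf2 were kept in every alternative run.

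Lgals9, the galectin that binds surface glycans, went the other way. It was at most 4.28 RPKM in any library before E15.5, with 0 and 0.708 RPKM at E12.5, and was 31.0 and 32.6 RPKM in E15.5 males and 18.8 and 16.0 in E15.5 females. It rose by 4.65 ± 0.52 SE on the log2 scale in males (limma adjusted p = 8.9e-05) and 3.81 ± 0.52 SE in females (limma adjusted p = 0.0002), and both calls were kept in every alternative run. Mx1 was at most 0.408 RPKM before E15.5 and reached 2.05 and 1.83 RPKM in E15.5 males only, with 0.227 and 0.147 in females. It is counted among the 2 male rises, but it passed the filter of 1 RPKM only through the 2 E15.5 male libraries, the group in which it is high, so no test of it is given. In females Usp18 rose by 1.41 ± 0.42 SE (limma adjusted p = 0.033), Jak1 by 0.95 ± 0.28 SE (limma adjusted p = 0.032) and Irf3 by 0.79. None of these 3 calls stood in a fit of the PGC libraries alone, and without either E12.5 library 1 gene rose in females, and without either E15.5 female library 2 did. The male falls dropped from 4 to 2 without E12.5 replicate 2 or E15.5 male replicate 2, and with a pseudocount of 0.1 1 gene fell in males and 6 in females. The mesenchyme markers summed to 1.84 to 4.67 RPKM at E12.5, 19.2 to 22.4 in E15.5 males and 5.74 to 7.67 in E15.5 females. In E15.5 males Prrx2 alone was 18.6 and 20.1 RPKM, and the other genes of that list were at most 1.79 RPKM. The leukocyte and macrophage markers summed to 3.12 to 4.34, 5.99 to 12.9 and 2.09 to 4.40 RPKM in the same order. The part of these markers in the changes was not tested.

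**Figure D4:**
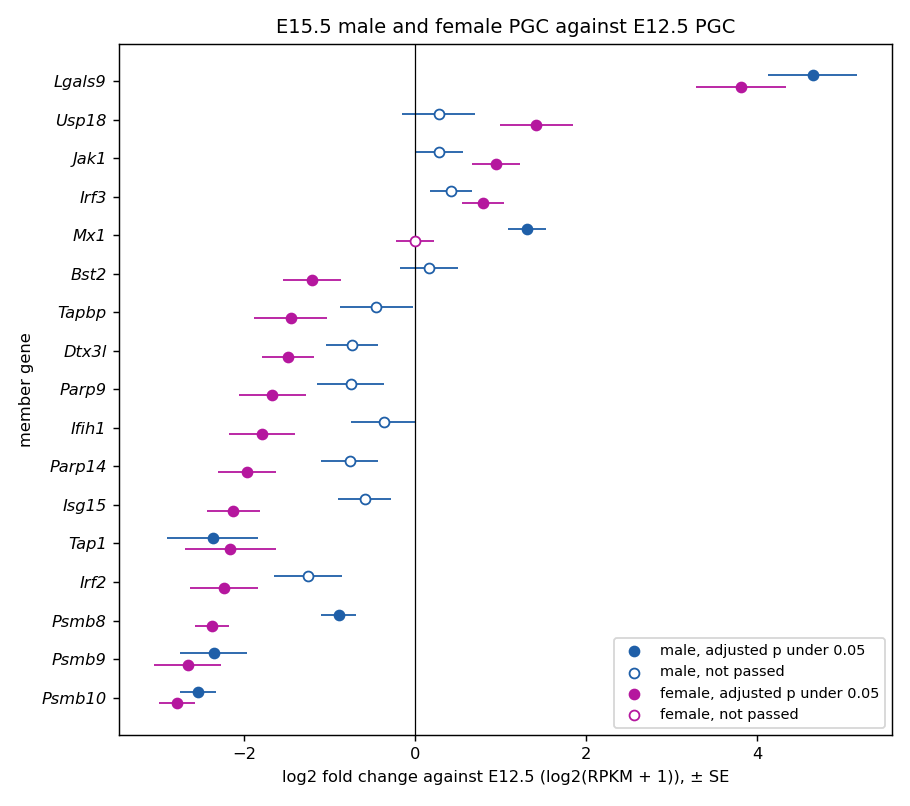
Log2 change, with its standard error, of the 17 genes that passed in at least 1 sex between E12.5 and E15.5 PGC, on the log2(RPKM + 1) scale. Filled points passed limma at an adjusted p under 0.05. Mx1 has a filled male point, but it passed the filter only through the E15.5 males, so that point is not a test. The female point lies below the male point for Isg15, Psmb8, Tapbp and Bst2, the male Bst2 point lies above 0, and Lgals9 lies far above 0 in both sexes.

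Males and females were then compared with each other at E15.5. In females 5 of 39 genes were lower than in males and 0 higher, against 4.5% and 3.66% of all genes tested, and the medians were -0.46 for the 39 genes and 0 for all genes. Psmb8 was lower by a log2 difference of -1.48 ± 0.22 SE (limma adjusted p = 0.0019), and Isg15 by -1.54 ± 0.32 SE (limma adjusted p = 0.013). Mx2, at 49.97 and 58.0 RPKM in males and 13.7 and 15.7 in females, differed by -1.81 ± 0.44 SE (limma adjusted p = 0.029), and Bst2, at 9.35 and 9.05 against 2.48 and 3.48 RPKM, by -1.37 ± 0.36 SE (limma adjusted p = 0.040). The fifth, Mx1, is given without a test for the reason above. In all 5 genes both female libraries lay below both male libraries. The Psmb8 call was kept in every alternative run. Mx2 was lost without any of the 4 libraries, Isg15 without either male library or female replicate 1, and Bst2 in 8 of 18 fits that left out 1 library. The count was 2 without either male library, 2 without female replicate 1 and 3 without female replicate 2, and 1, that of Psmb8, with a pseudocount of 0.1.
The difference between the E15.5 and the epiblast sex difference was tested as an interaction; 2 of 39 genes were lower and 0 higher, against 1.7% and 1.22% of all genes tested, with medians of -0.36 for the 39 genes and 0.02 for all genes. The 2 were Psmb8 and Mx1, which are at 0 in all 6 epiblast libraries and passed the filter only through PGC, so the interaction restates their E15.5 difference and adds no result. The count was 0 with a pseudocount of 0.1, without either female epiblast library, without either E15.5 male library and without E15.5 female replicate 1.

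Among the 39 tested genes, the PGC group with the highest mean was E10.5 for 11, E12.5 for 11, E15.5 males for 6, E9.5 for 5, E15.5 females for 5 and E11.5 for 1. The lowest was E15.5 females for 15, E9.5 for 6, E10.5 for 6, E11.5 for 5, E15.5 males for 4 and E12.5 for 3. The same counts were not made over all genes tested, so no trait of these genes is read from them. Summed RPKM among PGC was highest in the E10.5 libraries, at 849182 and 760137, and was 587609 and 659977 in E15.5 females. Its part in these counts was not tested. Of 21 tested genes that passed in at least 1 comparison and have a promoter window, 12 hold the ISRE core and 3 the GAS. Among all 35 of the genes with a window, 18 and 6 do, and among all windows 3.92% and 8.87%. No link between a motif and a call was tested. The genes were chosen as genes of antigen processing and the interferon response.

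Of the genes of MHC regulation, the class I activator Nlrc5 never passed 0.433 RPKM and Cd74 was 1.90 to 7.66 RPKM in epiblast and 0 to 6.93 RPKM in PGC. Class I heavy chains, onto which the peptides would be loaded, were followed within a wider list of MHC genes. The list held 50 class I, class II and related genes, of which 21 were tested. Its counts are therefore not of class I alone. Some of the class I RT1 genes are near-identical copies of each other, and reads could be split between them in the counting, so their single levels are uncertain. RT1-CE16, the highest of those described, was 15.8 to 46.8 RPKM in epiblast, 94.6 and 150 at E9.5, 107 and 92.2 at E10.5, 94.8 and 86.4 at E11.5, 42.5 and 39.1 at E12.5, 35.9 and 32.4 in E15.5 males, and 28.2 and 28.1 in E15.5 females. RT1-A2 was 28.0 and 50.7 RPKM at E9.5 and 5.37 and 5.48 at E12.5, whereas RT1-M3-1 was 14.1 and 18.9 RPKM at E9.5 and 26.3 and 23.5 in E15.5 males. From E9.5 to E12.5, 0 of the 21 rose and 7 fell, against 11.3% and 11.9% of all genes tested, among them RT1-A2 (log2 change -2.59 ± 0.50 SE, limma adjusted p = 0.0019) and RT1-CE7 (log2 change -2.57 ± 0.48 SE, limma adjusted p = 0.0014), where the median was -0.90 for the list and 0 for all genes. B2m fell over the same span, while Tap1 rose and Tapbp, Psmb8, Psmb9, Psme1 and Psme2 did not pass (log2 changes of -0.07 to 0.64). The B2m and Tap1 calls were both lost with a pseudocount of 0.1 and without a filter. Both were also lost without E9.5 replicate 1 or E12.5 replicate 2, and that of B2m with quantile normalization.
The class II chain RT1-Db1 was 7.55 to 16.7 RPKM in epiblast, 3.74 and 1.85 at E9.5 and at most 0.246 RPKM in later PGC, and the class II activator Ciita was at most 0.380 RPKM in any library.

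**Figure D5:**
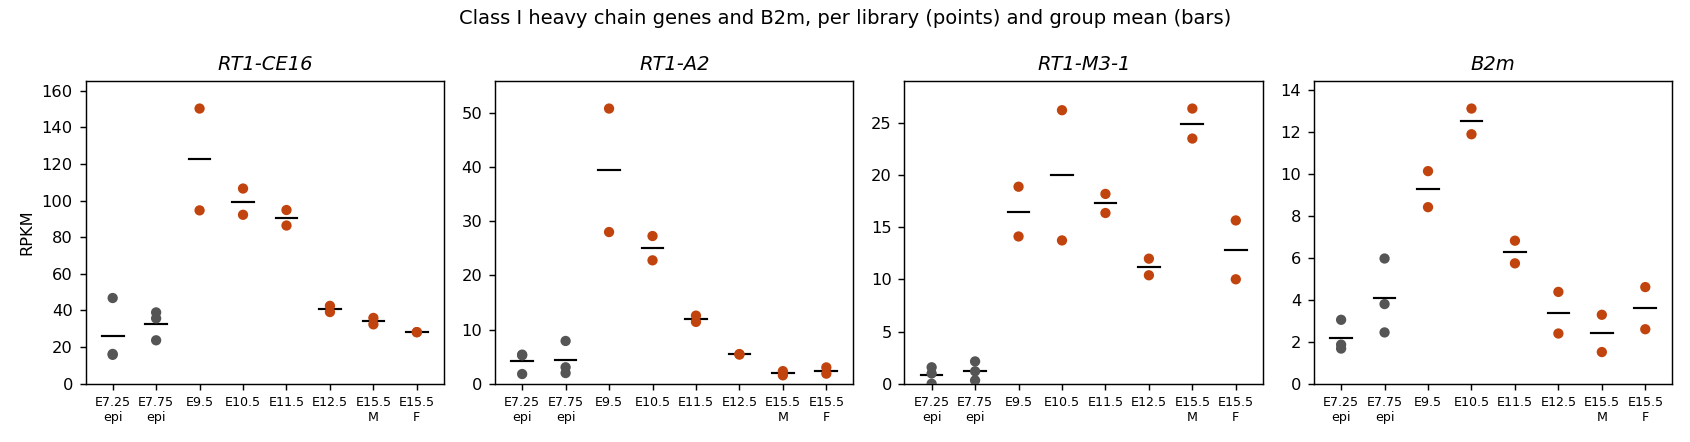
RPKM of 3 class I heavy chain genes and of the light chain gene B2m in each library (points) with the group mean (bars), on linear axes from 0. RT1-CE16 and RT1-A2 are highest at E9.5 and B2m at E10.5, and RT1-M3-1 has its highest mean in E15.5 males.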

How the data were processed

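RPKM values per gene for 18 libraries were deposited by the authors in 1 table, and 0 columns belonged to other samples. Per the labels' protocols RNA was extracted with the PicoPure kit and libraries were made with the SMART-Seq v4 kit; the rn6 genome, Cufflinks 2.2.1, TopHat2 2.1.0, cutadapt 1.14 and bcl2fastq 2.18.0.12 are named, without their roles, in the submitters' processing notes. The table holds no read counts, so depth was read only relative to 1 library, from the most common ratio of low RPKM values.

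The 44 genes, the other gene lists and the marker lists were chosen with earlier results of these data known. Genes with at least 1 RPKM in at least 2 libraries were tested with limma 3.58.1 (R 4.3.3) on log2(RPKM + 1), with a variance trend, in 1 model of 8 groups with the epiblast sexes together, or of 10 groups for the sex comparisons. P-values were adjusted over all 14865 genes. The test was checked on simulated data. Given in full are, per role, the 2 genes (3 for effectors) with the highest PGC mean, and per comparison the 3 largest rises and 3 largest falls that passed; per other list, the 2 largest each way. Other genes named were chosen after their values were seen. Alternatives were a pseudocount of 0.1, no filter or 5 RPKM, quantile normalization, upper quartile scaling, no trend, a replicate block, fits of 1 cell type, and leaving out each library. After seeing the data, fits without the 4 libraries of lower depth were added. Promoter windows come from RefSeq (GRCr8); coordinates of the rn6 files were not used.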

Additional observations from a re-analysis of the deposited data

Results flagged for a closer look

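In E7.75 male epiblast replicate 1, Ifngr1 was at 4.71 RPKM, apart from the other 5 epiblast libraries at 11.5 to 16.3 RPKM. It was the 1 library that stood apart among 24 of the genes examined across the 6 epiblast libraries, where chance sets about 1 in 20 such groups apart. For Psmb8 the difference of females from males on the log2 scale differed between E15.5 PGC and epiblast by -1.48, and for Mx1 by -1.31. Both genes are at 0 in every epiblast library and passed the filter only through PGC, so these values restate the E15.5 difference and are no separate result.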

How the results depend on the processing

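Of 58 calls made on the genes over the 10 comparisons, 25 were kept in every alternative run, 33 were lost in at least 1 and 0 reversed. The 58 include the Mx1 calls, which are not tests for the reason given above. With a pseudocount of 0.1, 28 calls were lost: the rises went to 0 from E7.25 to E7.75, 5 from E9.5 to E10.5, 0 from E11.5 to E12.5 and 1 from E9.5 to E12.5, the falls to 3 from E9.5 to E12.5, 1 in E15.5 males and 6 in E15.5 females, and the genes lower in E15.5 females than males to 1 and in the interaction to 0. Without a filter the E7.75 rise was lost (0) and 3 genes fell from E9.5 to E12.5. With a filter of 5 RPKM, 0 genes rose from E11.5 to E12.5, 1 rose in E15.5 males and 1 was lower in the interaction. With quantile normalization 0 genes rose from E11.5 to E12.5, 3 fell from E9.5 to E12.5, and 1 gene of the E9.5 libraries lay below the E7.75 epiblast without overlap. With upper quartile scaling 0 genes rose from E11.5 to E12.5 and 1 was lower in the interaction; it moved the share of all calls that were rises from 49.9% to 39.7% for E11.5 against E10.5 and from 57.1% to 40.3% for E12.5 against E11.5. Without a variance trend 2 genes rose from E11.5 to E12.5 and 8 were lower in E15.5 females than males. In fits of 1 cell type 0 genes rose from E7.25 to E7.75, 1 was higher and 1 lower in female epiblast, 6 fell from E10.5 to E11.5 and 1 rose in E15.5 females. Without the 4 E10.5 and E11.5 libraries, chosen after seeing the data, 0 genes rose from E7.25 to E7.75 and 3 of 39 calls were lost. The cause of these moves was not tested.

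Replicate numbers are shared between groups but do not pair the libraries: the replicate differences of 2 groups correlated by -0.133 to 0.0581. With a replicate block 6 of 58 calls were lost, 1 gene rose from E10.5 to E11.5, 0 rose from E11.5 to E12.5 and 1 was lower in the interaction.

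Leaving out 1 library at a time gave 0 to 1 rises from E7.25 to E7.75, 7 to 9 rises and 5 to 7 falls from E9.5 to E10.5, 0 to 2 rises and 3 to 5 falls from E10.5 to E11.5, 0 to 1 rises from E11.5 to E12.5, and 1 to 7 rises and 1 to 6 falls from E9.5 to E12.5. It gave 2 to 3 rises and 2 to 5 falls in E15.5 males, 1 to 4 rises and 8 to 13 falls in E15.5 females, 2 to 6 genes lower in E15.5 females than males and 0 to 3 in the interaction. Without overlap, 19 to 21 genes were higher in PGC than in epiblast, and for E9.5 against the E7.75 epiblast 33 to 34 were higher and 0 to 2 lower. Where 1 library is left in a group, it is assumed to vary like the other groups. Depth limits the low genes at E10.5 and E11.5, and no read counts give an interval for them.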

Other observations

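Other genes induced by interferon, 51 by name and 44 in the table, of which 32 were tested, were followed over the same stages. In E15.5 females 13 of the 32 fell and 0 rose from E12.5, against 9.84% and 8.6% of all genes tested, with a median log2 change of -0.88 against 0 for all genes. In E15.5 males 4 fell and 2 rose, against 5.15% and 3.58%. Tor3a, an ATPase of the torsin family, was 86.0 and 86.6 RPKM at E12.5, 17.02 and 25.5 in E15.5 males and 9.17 and 4.61 in E15.5 females (females against E12.5, log2 change -3.53 ± 0.36 SE, limma adjusted p = 1.9e-05). Oasl2, a relative of the RNA-activated oligoadenylate synthetases, was 11.4 and 12.9 RPKM at E12.5, 7.54 and 6.10 in E15.5 males and 1.63 and 1.30 in E15.5 females (females against E12.5, log2 change -2.41 ± 0.31 SE, limma adjusted p = 0.00013). Between E15.5 females and males 12 of the 32 were lower in females and 0 higher, against 4.5% and 3.66% of all genes tested, led by Ifi27l2b, at 17.3 and 12.2 RPKM in males and 1.52 and 0.614 in females (log2 difference -2.94 ± 0.39 SE, limma adjusted p = 0.0011). From E9.5 to E12.5, 8 rose and 5 fell, against 11.3% and 11.9% of all genes tested, Tor3a (2.97) and Ifi44 (2.95) rising most on the log2 scale. The list also holds Ifitm1 and Ifitm3, which rose by 3.17 and 3.09 from E9.5 to E10.5.

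Other genes of interferon signalling, 15 of 18 tested, included 4 that rose and 1 that fell from E9.5 to E12.5, against the same 11.3% and 11.9%. The feedback inhibitor Socs3 rose by 2.35 on the log2 scale. Ube2l6, the enzyme that conjugates Isg15, was at 0 in all 6 epiblast libraries and 27.7 and 30.7 RPKM at E12.5; it fell by 1.75 in E15.5 males and 2.96 in E15.5 females on the log2 scale. Ifnar2, the second chain of the type I receptor, was 1.05 and 0.7498 RPKM in E15.5 males and 5.68 and 10.2 in E15.5 females (log2 difference 2.19 ± 0.45 SE, limma adjusted p = 0.011). It was the 1 gene of the 15 that passed between the sexes there, where 3.66% of all genes tested were higher in females and 4.5% lower. Among 14 tested genes of peptide processing outside the 44, 5 fell in females from E12.5 to E15.5, against 9.84% of all genes tested, Hspa5 by 1.2 and Canx by 0.66, both chaperones of the endoplasmic reticulum, and 0 passed in males, against 5.15% that fell.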
